A study of Mus musculus with 3 samples.

Results

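Venous-type endothelial cells of the hippocampus were described from 1 single-cell RNA library of the series. Endothelial cells line the blood vessels, and in the brain their identity changes along the vessel from artery through capillary to vein. Post-capillary venules and veins are where circulating leukocytes bind and leave the blood, through adhesion molecules such as Icam1, Vcam1 and the selectins. The same segment responds to interleukin-1 through the receptor Il1r1. Vwf encodes von Willebrand factor, which endothelial cells store for haemostasis and which large vessels of both kinds make. Lrg1 encodes a secreted leucine-rich glycoprotein of venular and inflamed endothelium.

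The 557 cells described here were selected on their own reads, by the unique molecular identifiers (UMIs, the counted molecules) of a few genes. Of 6672 deposited barcodes, 6485 had at least 500 genes and at most 15% of UMIs from mitochondrial genes. Of these, 1521 were taken as endothelial: at least 5 UMIs of Cldn5, Flt1, Pecam1 and Ly6c1 together, at most 10 of the C1q genes and at most 20 of Ttr. Members had at least 2 UMIs of Lrg1, Il1r1 and Vwf together and more of these than of Gkn3, Bmx, Sema3g and Fbln2, which mark arteries. They made up 36.6% of the endothelial cells (exact 95% binomial interval, 34.2 to 39.1) and 8.59% of all filtered cells. The other 964 endothelial cells served as comparison. They comprised 264 arterial-gate cells, with at least 2 UMIs of the 4 arterial genes and more of these than of the venous genes, and 700 cells outside both gates.

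The library came from the hippocampi of 5 Aldh1l1-CreERT2;Rosa26-LSL-tdTomato mice, dissociated together and not told apart. All of these mice had received AAV-TIGRi-Hopx, a Cre-dependent vector against Hopx with an EGFP reporter, in the hippocampus, then tamoxifen, with collection 3 weeks later. The suspension was sorted for tdTomato and EGFP, and no library without the vector is compared here. The Cre driver is known for astrocytes, so endothelial cells are not the population that the sort was set for, and their shares are shares of sorted cells. With 1 library there is no replicate and no test of a difference. Intervals below are exact 95% intervals (Poisson for levels, binomial for ratios and shares) and cover counting error only, since cells of 1 library are not replicates.

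Members had a median of 4200 UMIs per cell, against 3866 in arterial-gate cells and 3036 in cells outside both gates. A cell with more UMIs passes a gate of 2 UMIs more easily, so levels are given as CPM, a gene's count per 1000000 UMIs of the group, and shares of cells also after thinning each cell to 2000 UMIs. The members' sum was 2771330 UMIs and that of the other endothelial cells 3444524. Endothelial markers that the gate did not use were compared between members and the other endothelial cells. Both groups passed the same endothelial gate, so this comparison cannot check the venous part of the label. Of 11 such genes none differed by 1.5-fold upward and 1, Emcn, was lower, and their median log2 ratio was 0.04. RNA of other cell types was present at low levels in both groups. Mural markers summed to 160 CPM in members and 411 CPM in the others, astrocyte markers to 87.7 and 294 CPM, microglia markers to 266 and 363 CPM, and haemoglobins to 380 and 2768 CPM. Of the compared markers 8 of 9 mural, 7 of 7 astrocyte, 3 of 5 microglia and 3 of 3 haemoglobin genes were lower in members and none was higher, and the pericyte gene Cspg4 was at 0 in members. Their part in the lower genes below was not tested, beyond leaving out the cells richest in them.

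The gate genes are given as description only, because they chose the cells. Il1r1 supplied 57.6% of the 4498 gate UMIs in members, Vwf 37.2% and Lrg1 5.18%. Il1r1 stood at 935 CPM in members and 28.5 CPM in the other endothelial cells, and Lrg1 at 84.1 and 3.19 CPM. Vwf was the least exclusive of the 3. It stood at 604 CPM in members, 195 CPM in arterial-gate cells and 86.0 CPM outside both gates. The label therefore rests mostly on Il1r1 and Vwf, with Lrg1 seen in 15.4% of members (12.5 to 18.7) and in 1.04% of the other endothelial cells. In 2987 C1q-high cells of the library, which have over 10 C1q UMIs as microglia do and a median of 6287 UMIs, Lrg1 was seen in 0.0335%.

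Gate UMIs had a median of 5 per member (quartiles 3 and 10, highest 65). Just inside the threshold lay 135 members with exactly 2 gate UMIs, and just outside it 226 endothelial cells with exactly 1. A further 87 endothelial cells had at least 2 venous gate UMIs but not more than their arterial ones, 17 of them ties. No arterial gate UMI was found in 488 members. The scatter of the gates shows a continuum along the venous axis and few cells high on both.

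**Figure D1:**
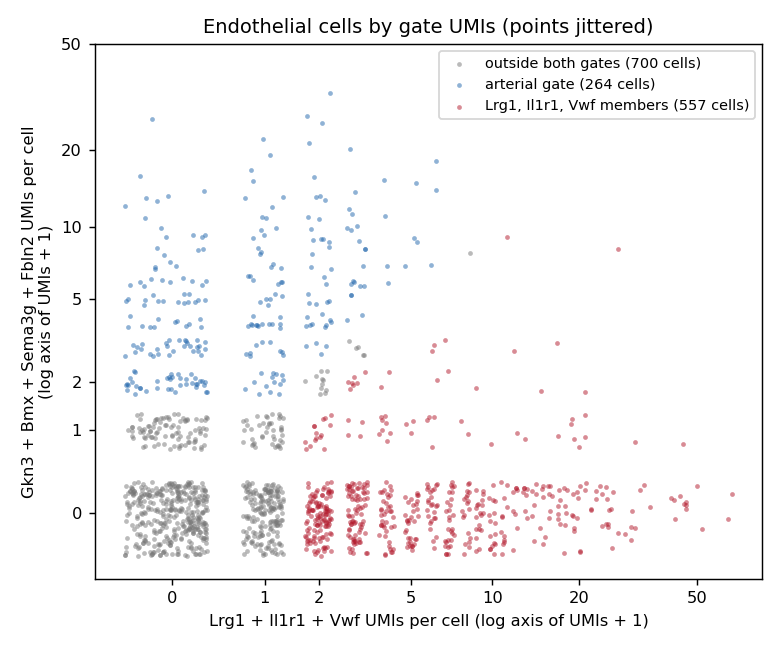
Each point is 1 of the 1521 endothelial cells, placed by its summed Lrg1, Il1r1 and Vwf UMIs (horizontal) and its summed Gkn3, Bmx, Sema3g and Fbln2 UMIs (vertical), on log axes of UMIs + 1 with jitter. The 557 members lie to the right and low, with 488 of them at 0 arterial UMIs, and the groups meet at the gate without a gap.

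Genes known for veins and venules were higher in members as a group. Over all 8630 genes compared (at least 10 CPM over all endothelial cells, gate genes left out), 297 were at least 1.5-fold higher in members (3.44%) and 592 at least 1.5-fold lower (6.86%), and the median log2 ratio was -0.02. Listed genes were compared from 20 UMIs on, a rule under which 4.86% of 10931 genes were higher and 12.7% lower. Of 11 compared genes of the vein and venule list, 8 were higher and 1 was lower, with a median log2 ratio of 1.38. No p-value can be given for these counts, and the members and gene lists were chosen with earlier results of these data known.

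Slc38a5, a glutamine transporter used as a brain vein marker, stood at 99.95 CPM in members, 35.6 CPM in cells outside both gates and 2.62 CPM in arterial-gate cells. Against all other endothelial cells this was 4.05-fold higher (3.17 to 5.23). It was seen in 31.2% of members, 6.85% of the other endothelial cells (median 3267.5 UMIs) and none of the 2987 C1q-high cells, where a count of 0 allows a share of cells with a UMI of up to 0.100% (set at 3 counts). After thinning the shares were 17.6% of members and 3.97% of the others. Both scales put members first, cells outside both gates between and arterial-gate cells last.

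Nr2f2, the transcription factor COUP-TFII that maintains venous identity by holding Notch signalling down, stood at 140 CPM in members and 38.6 CPM in the others, 3.64-fold higher (2.98 to 4.46). Nrp2, a co-receptor for VEGF and semaphorins in veins and lymphatics, was 4.18-fold higher (3.24 to 5.45), at 96.0 and 22.9 CPM, and was seen in 43.3% of C1q-high cells as well. Tmsb10, an actin-binding thymosin, was the most abundant gene of the list, at 2265 CPM in members, 1193 CPM outside both gates and 217 CPM in arterial-gate cells. These levels put the cells outside both gates between the other groups, as for Slc38a5. Tmsb10b, a copy of that gene with shared sequence, was also higher (37.9 and 13.1 CPM), and reads could be split between them.

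Ctsc, a lysosomal protease, was 2.31-fold higher (172.8 and 74.9 CPM) and Prcp, a carboxypeptidase of the kinin system, 2.38-fold higher (47.6 and 20.0 CPM). Ackr1, the atypical chemokine receptor that defines venular endothelium in many organs, was sparse. It had 53 UMIs in members and 12 in the others (5.49-fold, 2.90 to 11.3), and 49.1% of the members' UMIs lay in 3 cells. Ephb4, the venous receptor for the arterial ligand Efnb2, stood at 78.7 and 53.4 CPM, a ratio of 1.47 that stayed below the fold used. Tmem252 had a ratio of 1.24. Emcn, an endomucin of veins and capillaries, was lower in members, at 295.5 CPM against 466 CPM.

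**Figure D2:**
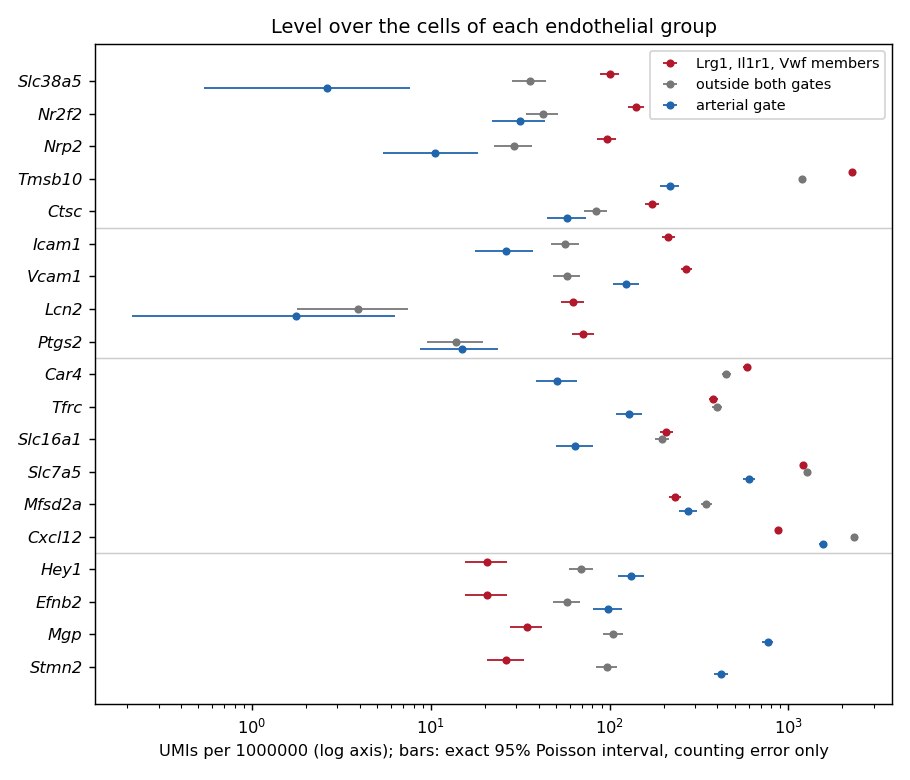
Level of 19 list genes over the summed UMIs of members (red), endothelial cells outside both gates (grey) and arterial-gate cells (blue), in UMIs per 1000000 on a log axis with exact 95% Poisson intervals. From top to bottom the blocks are vein and venule genes, inflammatory and adhesion genes, capillary genes and arterial genes; Slc38a5 runs from 99.95 in members to 2.62 in arterial-gate cells, Mgp from 34.3 to 765.

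Arterial genes were lower in members: 17 of 18 compared list genes passed 1.5-fold, none in the other direction, with a median log2 ratio of -1.71. Since the gate required fewer arterial than venous gate UMIs and the comparison group holds the arterial-gate cells, this direction is largely set by the rule. Against the cells outside both gates alone, 11 of the list were lower and 1, Eln, was higher. Mgp, an inhibitor of calcification and BMP signalling, stood at 34.3 CPM in members, 105 CPM outside both gates and 765 CPM in arterial-gate cells. Hey1, a Notch target of arteries, stood at 20.6, 69.5 and 132 CPM in that order. Efnb2, the arterial ephrin, stood at 20.6, 57.8 and 98.0 CPM. In all 3, members were below the cells outside both gates as well as below the arterial-gate cells, with intervals that did not overlap. Smooth muscle RNA accompanies arteries, and Acta2 and Tagln were also lower in members (4.33 against 48.5 CPM and 2.89 against 30.2 CPM). Their part in the arterial difference was not tested.

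Capillary genes did not set members apart from all others together as a list: of 13 compared, 1 was higher and 1 lower, with a median log2 ratio of 0.20. Against arterial-gate cells alone 7 were higher and 1 lower, and against cells outside both gates none was higher and 2 were lower. Car4, a carbonic anhydrase of capillary and venous surfaces, stood at 585 CPM in members, 449 CPM outside both gates and 50.7 CPM in arterial-gate cells. Members and cells outside both gates were thus close, with a ratio of 1.30, and the ratio to all other endothelial cells was 1.85. Cxcl12, a chemokine of arterial and capillary endothelium, was the gene of the list that was lower against all others together. It stood at 871 CPM against 2329 CPM outside both gates and 1560 CPM in arterial-gate cells. It was the opposite case: arterial-gate cells lay between.

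Mfsd2a, the lipid transporter that keeps transcytosis low in capillaries, stood at 232 CPM in members and 322.5 CPM in the others (ratio 0.72, 0.65 to 0.79). Slc16a1, the lactate transporter, had a ratio of 1.36 (1.21 to 1.53), and Tfrc, the transferrin receptor, one of 1.23 (1.13 to 1.34). None of these 3 passed the fold. Barrier genes were likewise not apart from all others together: of 19 compared junction and transport genes, none passed 1.5-fold in either direction, and the median log2 ratio was 0.16. Against arterial-gate cells alone 6 were higher and 1 lower, and against cells outside both gates none passed. Slc2a1, the glucose transporter of the barrier, stood at 3622 CPM in members and 3495 CPM in the others, and Abcb1a, the efflux pump P-glycoprotein, at 1500.4 and 1232 CPM. Ocln, of the tight junction, stood at 304.5 and 309 CPM. Of the fenestrated endothelium list 3 genes had enough UMIs, Plpp1, Plpp3 and Igfbp3, and all 3 were lower in members. They were also lower against cells outside both gates alone. The whole list summed to 77.6 CPM in members, 161 CPM outside both gates and 414 CPM in arterial-gate cells. The part of the arterial-gate cells in this difference was not tested. Plvap, which forms the diaphragms of fenestrae, had 0 UMIs in members and 8 in the others.

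Adhesion molecules for leukocytes did not differ as a list, but 3 inducible members of it did. Of 14 compared genes 3 were higher and 2 lower, with a median log2 ratio of -0.10. Icam1, the ligand of leukocyte integrins, stood at 213 CPM in members, 56.5 CPM outside both gates and 26.2 CPM in arterial-gate cells (4.59-fold against all others, 3.85 to 5.50). Vcam1, the ligand of the integrin alpha-4 beta-1, stood at 268 CPM in members, 57.8 CPM outside both gates and 123 CPM in arterial-gate cells (3.37-fold, 2.93 to 3.89). The groups outside the members thus differed in order between these genes: arterial-gate cells were second for Vcam1 and last for Icam1. Sele, E-selectin, had 28 UMIs in members and 3 in the others, and 46.4% of the former lay in 3 cells. Selp, P-selectin, had 0 UMIs in members and in the others.

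The lower genes of the list were both sparse: Mcam, with 7 UMIs in members and 40 in the others (ratio 0.22, 0.082 to 0.49), and the junction gene Jam3, with 10 and 34 (0.37, 0.16 to 0.76). Mcam is also a gene of mural cells, whose markers were lower in members, and their part in its ratio was not tested beyond leaving out the cells richest in such RNA. Its log2 ratio, -2.12, lay between -2.80 and -1.43 over 13 alternatives, that one included. Other constitutive adhesion and junction genes stayed between the folds. Icam2 had a ratio of 0.81, F11r of 1.01, Esam of 1.10 and Jam2 of 0.94. Icam1 was seen in 26.6% of members and 8.09% of the others, and Vcam1 in 26.8% and 8.61%. After thinning the shares were 18.1% and 5.58% for Icam1 and 18.7% and 6.33% for Vcam1. Both genes were seen in more C1q-high cells than members, at 50.6% for Icam1 and 51.5% for Vcam1. Without the cells that held at least 10 UMIs of other cell types' markers or of haemoglobin, the log2 ratios were 2.13 for Icam1 and 1.73 for Vcam1, against 2.20 and 1.75 with them.

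Several genes that NF-kB is known to induce were higher in members. Of 19 compared genes of the list 7 were higher and 1 lower, and the median log2 ratio was 0.53. Lcn2, the iron-siderophore binding lipocalin of the acute response, had 172 UMIs in members and 11 in the others, or 62.1 and 3.19 CPM (19.4-fold, 10.6 to 39.7). Ptgs2, cyclooxygenase-2, through which brain endothelium makes prostaglandin in fever, stood at 70.7 and 14.2 CPM (4.97-fold, 3.62 to 6.95). Cxcl1, a neutrophil chemokine, was 3.45-fold higher (2.38 to 5.08) and Ch25h, cholesterol 25-hydroxylase, 2.77-fold higher (1.92 to 4.05). These genes were sparse in members, with Lcn2 seen in 12.03% of them and Ptgs2 in 15.8%. Ptgs2 was also seen in 17.0% of C1q-high cells. After thinning its shares were 8.02% of members and 7.86% of C1q-high cells.

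The feedback inhibitors of the pathway differed less. Nfkbiz stood at 197 and 107 CPM (1.84-fold) and Tnfaip3, the enzyme A20, at 50.9 and 29.9 CPM (1.70-fold), whereas Nfkbia, which encodes the main inhibitor and was the most abundant, stood at 2140 and 1907 CPM. Cxcl10 was 2.45-fold higher, but 75% of the members' UMIs lay in 3 cells. Without the 3 richest cells of each group its ratio was 1.38. Lcn2 was not so concentrated in members, with 22.7% of its UMIs in 3 of them. Its ratio was 33.1 without the 3 richest cells of each group. That ratio rests on few UMIs outside the members, where Lcn2 was seen in 8 of 964 cells.

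Other response lists had few genes past the fold. Of 22 interferon response genes none passed the fold in either direction, and their median log2 ratio was 0.04. Of 11 compared genes of the STAT3 and acute phase list 2 were higher and none lower, with a median log2 ratio of 0.21. These were Serpina3n with 46 UMIs against 5 (11.4-fold, 4.56 to 36.9) and Serpina3f with 27 against 6 (5.59-fold, 2.26 to 16.6), and both belong to a family of close copies. Socs3, the feedback inhibitor of STAT3, stood at 110.1 and 106 CPM. Among cytokine receptors and their adaptors, Il6ra, the interleukin-6 receptor, was higher (115 and 56.9 CPM, 2.03-fold), 1 of 20 compared. It was also seen in 59.8% of C1q-high cells. Il1rap, the partner chain of Il1r1, had a ratio of 1.15 (0.77 to 1.72) and Myd88, its adaptor, one of 0.97 (0.63 to 1.47). Il1rap had 50 UMIs in members and 54 in the others, and Myd88 42 and 54, so that only a large difference in these partners of the gate gene could have been seen.

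The immediate early genes, which dissociation itself can induce, were close: 1 of 20, Fosb, was higher (1114 and 668 CPM), and their median log2 ratio was 0.19. MHC genes had 2 of 17 higher and 1 lower. The haemostasis list had 1 of 14 higher and 3 lower. Rab27a, which brings Weibel-Palade bodies, the stores of von Willebrand factor, to maturity, was the higher gene, with 62 UMIs against 16 (4.82-fold, 2.75 to 8.94). It is also present in C1q-high cells, in 24.6% of them against 8.08% of members. F3, tissue factor, had 0 UMIs in members and 22 in the others, 54.5% of them in 3 cells.

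**Figure D3:**
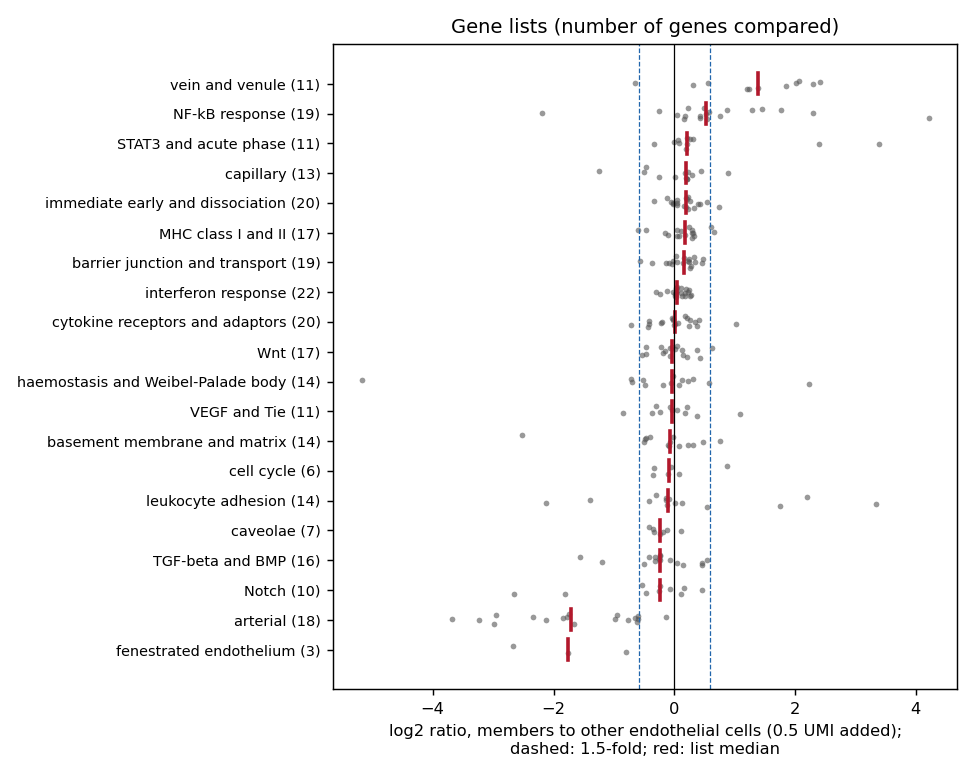
Log2 ratio of members to other endothelial cells for each compared gene (points) of the lists with at least 3 such genes, with the list median in red and 1.5-fold as dashed lines. The vein and venule list has the highest median (1.38) and the NF-kB list the next (0.53). The fenestrated endothelium list (3 genes, -1.75) and the arterial list (-1.71) have the lowest, and most other lists lie within the dashed lines.

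Signalling lists had few genes past the fold. The medians of the TGF-beta and BMP list and of the Notch list were slightly negative, in all 13 alternatives that give them. Sema6a, a semaphorin, stood at 299 CPM in members and 140 CPM in the others (2.14-fold, 1.91 to 2.40), the only higher gene of 11 in the VEGF and Tie list. Smad6, an inhibitory Smad of BMP signalling, stood at 27.1 and 62.4 CPM (ratio 0.43, 0.33 to 0.57). In the TGF-beta and BMP list 2 of 16 genes were lower and none higher, with a median log2 ratio of -0.24. In the Notch list 2 of 10 were lower and none higher, with a median log2 ratio of -0.24. These were Hey2, with 4 UMIs against 19, and Notch3, with 7 against 58, a gene of mural cells whose other markers were also lower in members. Neither direction held in every alternative: the log2 ratio of Hey2 was -1.80 and became 1.45 after thinning, and that of Notch3 was -2.65 and became 0.25 without the cells rich in RNA of other types. In the Wnt list 1 of 17 was higher, Znrf3, at 101 and 65.6 CPM.

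Among all compared genes with at least 30 CPM in members, the highest ratio was that of Gm5127. It had 190 UMIs in 51 members (9.16%) and 2 UMIs in 2 of the other endothelial cells. Lcn2 was among the next, as were 4 genes held mostly by 3 cells. Sdk1, an adhesion molecule of the immunoglobulin family, stood below these at 88.8 and 13.4 CPM (6.65-fold) and C4b, complement component 4, at 63.5 and 12.8 CPM (4.97-fold). Both were also seen in C1q-high cells, Sdk1 in 24.3% and C4b in 64.0% of them. Wnt5a, a secreted ligand of non-canonical Wnt signalling, stood at 180 and 45.9 CPM (3.93-fold, 3.28 to 4.72) and was seen in 42.4% of members, 11.1% of the others and 0.301% of C1q-high cells. Car14, a membrane carbonic anhydrase, was 3.67-fold higher (2.72 to 5.00). Fmo2, a flavin monooxygenase picked after its values were seen, was abundant: 718 CPM in members and 221 CPM in the others. It was seen in 72.9% of members, 37.4% of cells outside both gates and 9.85% of arterial-gate cells.

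Several of the highest ratios came from single cells. In members, 3 cells held 97.7% of the 480 Jchain UMIs, 97.8% of the 186 Slpi UMIs, 92.5% of the Ly6c2 UMIs and 93.2% of the Cxcl9 UMIs. Jchain belongs to antibody-secreting cells, and the B cell marker Cd79a had 18 UMIs in members and 4 in the others. Without the 3 richest cells of each group the ratios were 2.28 for Jchain, 1.24 for Slpi, 1.09 for Ly6c2 and 1.07 for Cxcl9. These 4 genes are therefore not described as features of the members. Of the 297 higher genes, 272 stayed past the fold without the 3 richest cells of each gene and group.

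The lowest ratios included those of arterial list genes, of RNA from other cells and of genes on neither kind of list, such as Cdh13 and Lypd1. Cdh13, a T-cadherin, stood at 20.6 CPM in members against 152 CPM, and Lypd1 at 8.30 against 107 CPM. Alpl, the alkaline phosphatase of arterial and capillary brain endothelium, stood at 13.0 and 104 CPM, and Igfbp3 at 16.2 and 105 CPM. The haemoglobin genes lay in few cells: 3 members held 96.3% of the members' Hbb-bs UMIs and 3 other cells 46.0% of theirs. The log2 ratio of Hbb-bs was -2.83. It was -0.17 with doublets removed and -6.67 without the 3 richest cells of each group, so its size rests on few cells. Igfbp5 had 87.0% of its UMIs outside the members in 3 cells, and Ccn3 had 3 UMIs in members and 182 in the others.

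Levels of venous genes changed along the gate count on both sides of the threshold. Cells of the arterial gate were left out here, and the cells with 0, 1, 2, 3 to 4, 5 to 9 and 10 or more gate UMIs numbered 457, 226, 135, 140, 141 and 141. Slc38a5 stood at 36.1, 38.1, 53.2, 79.3, 117 and 126 CPM in this order. Nr2f2 stood at 34.0, 57.8, 79.8, 86.1, 142 and 206 CPM. The levels of both venous genes were higher at each step of the gate count, where neighbouring intervals overlapped throughout for Slc38a5. The cells with 1 gate UMI, outside the rule, were nearer to members with 2 than those were to members with 10 or more.

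Inflammatory genes were concentrated at the upper end. Lcn2 stood at 15.2 CPM in members with 2 gate UMIs and at 121 CPM in those with 10 or more, and Icam1 at 112 and 377 CPM. Ptgs2 stood at 13.3 and 135 CPM and Vcam1 at 94.9 and 461 CPM. Cxcl12 ran the other way, from 2602 CPM at 0 gate UMIs through 1443 CPM at 2 to 308 CPM at 10 or more, and Mfsd2a from 368 through 325 to 154 CPM. Car4 was highest in the middle, at 672 CPM with 2 gate UMIs, and stood at 444 CPM with 0 and 460 CPM with 10 or more. Depth moved with the gate count, from a median of 2972 UMIs per cell at 0 to 5833 at 10 or more, and its part in these levels was not tested.

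**Figure D4:**
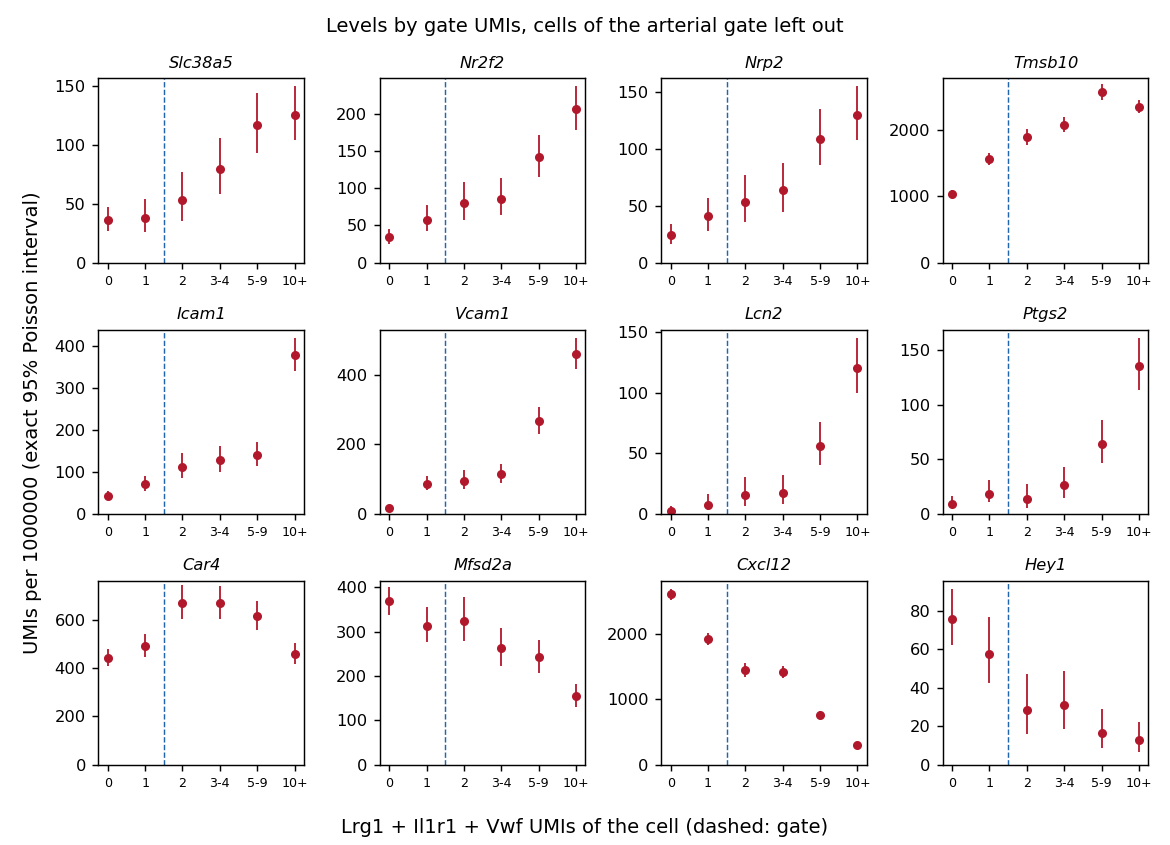
Level of 12 genes in UMIs per 1000000 (vertical, from 0, with exact 95% Poisson intervals) in endothelial cells grouped by their Lrg1, Il1r1 and Vwf UMIs (horizontal), with arterial-gate cells left out and the gate as a dashed line. Slc38a5 and Nr2f2 climb from left to right, Lcn2 and Ptgs2 are high mainly at 5 or more gate UMIs, and Cxcl12 descends from 2602 to 308.

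The members differed among themselves by which gate gene they carried. Il1r1 with Vwf was found in 275 members (49.4%), Vwf alone in 127, Il1r1 alone in 69 and all 3 genes in 68. Lrg1 was found with Vwf only in 14, with Il1r1 only in 3 and alone in 1. Several vein genes were lower and several arterial genes higher in members with Vwf alone than in those with Il1r1 alone. Of 10 compared vein and venule genes 5 were lower and none higher (median log2 ratio -0.60), and of 12 arterial genes 7 were higher and 1, Jag1, lower (median 0.90). Of 22 interferon response genes 13 were higher and none lower (median 0.66). Of 14 MHC genes 5 were higher and none lower (median 0.45). Over all 6143 genes with at least 20 UMIs in these cells 13.6% were higher and 8.19% lower. Nr2f2 stood at 57.4 CPM with Vwf alone against 139 CPM with Il1r1 alone, and Hey1 at 50.2 against 7.30 CPM, the latter from 2 UMIs. Tmem252 and Emcn had ratios of 1.20 and 1.10, and the intervals of Slc38a5 overlapped, at 53.8 and 80.3 CPM. Cxcl12 stood at 1955 CPM with Vwf alone and at 643 CPM with Il1r1 alone. The Nr2f2, Hey1 and Cxcl12 values of the Vwf members lay nearer to those of cells outside both gates (Nr2f2 42.2, Hey1 69.5 and Cxcl12 2329 CPM), at similar depths of 3881 and 3714 UMIs for the 2 kinds of members.

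Most compared NF-kB genes were higher in members carrying all 3 gate genes than in the rest of the members: 12 of 17 were higher and 1, Cxcl10, lower, with a median log2 ratio of 0.79. Over all 9190 genes with at least 20 UMIs in members 9.31% were higher and 15.2% lower. Lcn2 stood at 244 and 27.9 CPM (8.77-fold, 6.38 to 12.1), so that these 68 cells held 107 of the 172 Lcn2 UMIs. Ptgs2 stood at 221 and 42.4 CPM (5.22-fold), Gm5127 at 208 and 42.4 CPM (4.90-fold), and Cxcl1 at 105 and 27.9 CPM (3.77-fold, 2.53 to 5.58). In the cells with all 3 genes the 46 Cxcl1 UMIs lay in 9 cells and the Gm5127 UMIs in 17. Icam1 stood at 532 and 153 CPM and Vcam1 at 600.4 and 206 CPM. Cxcl9 ran the other way, at 20.5 and 109 CPM, from UMIs held mostly by 3 cells. Immediate early genes moved with this split: 3 of 20 were higher, Atf3 (2290 and 1077 CPM, 2.13-fold), Fosb (1719 and 1001 CPM, 1.72-fold) and Zfp36 (1228 and 763 CPM, 1.61-fold), none was lower, and the list's median log2 ratio was 0.42. The part of dissociation in this split was not tested. Of 11 vein and venule genes 8 were higher and none lower, with a median of 0.88. Nr2f2 was 2.24-fold higher, and Slc38a5 stood at 139 and 92.6 CPM. The capillary list shifted down in this split: 10 of its 13 compared genes passed 1.5-fold downward and 0 upward (median -0.79). Cxcl12, from that list, stood at 162 against 1005 CPM and Car4 at 304 against 638 CPM. The arterial list was mixed, with 6 of its 17 compared genes past the fold downward and 2 upward (median -0.34). Mgp was among the upward genes, at 77.6 against 26.1 CPM (2.97-fold, 1.89 to 4.59). The cells with all 3 genes had a median of 5464 UMIs, and the part of depth in this split was not tested.

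**Figure D5:**
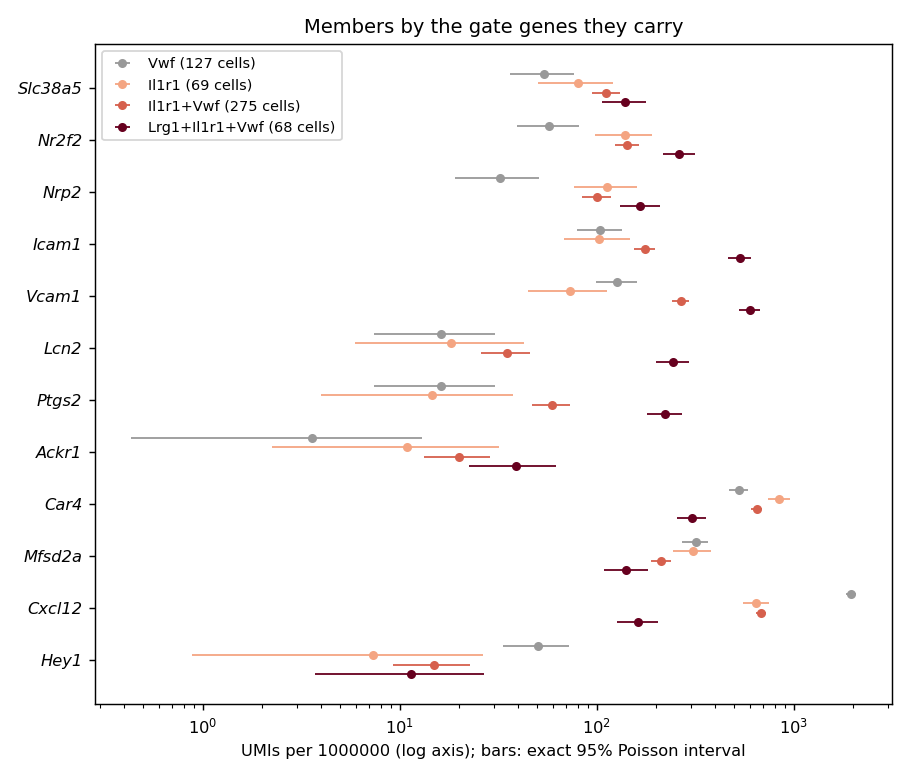
Level of 12 genes in UMIs per 1000000 (log axis, exact 95% Poisson intervals) in members with Vwf alone (127 cells), Il1r1 alone (69), both (275) and all 3 gate genes (68). Lcn2, Ptgs2, Icam1 and Vcam1 are highest in cells with all 3 genes, and Cxcl12 runs from 1955 in cells with Vwf alone to 162 in these.

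Promoter sequences were read for the inducible genes, because NF-kB binds a known 10-base element, the kappa-B consensus. It was searched on both strands, with overlapping matches counted, in RefSeq windows (build GRCm38.p6, 250 bases before to 50 after the start). Of 32851 windows 8.46% held a match, and of the 27025 genes with a window 9.55% had one in at least 1 window. Of the 10 higher genes of the NF-kB and adhesion lists, 8 had a window and 3 of these, Cxcl1, Cxcl10 and Tnfaip3, held a match. Among the 20 compared genes of these lists between the folds, 12 had a window and 5 held one, and of the 3 lower genes 2 had a window and 1, Tnfaip2, held one. A match describes letters and shows no binding, and a window without one shows only that these letters are not in it. The 250 bases before the start are printed for both chemokines, with matches in capitals, and for Icam1, which has none. They are given on the gene's strand.
Cxcl1 (chr5:90890995-90891244, plus strand): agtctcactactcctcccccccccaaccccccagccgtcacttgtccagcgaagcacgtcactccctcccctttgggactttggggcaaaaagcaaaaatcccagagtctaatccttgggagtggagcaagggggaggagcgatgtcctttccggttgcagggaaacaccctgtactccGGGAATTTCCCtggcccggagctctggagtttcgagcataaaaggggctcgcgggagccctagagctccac
Cxcl10 (chr5:92348890-92349139, minus strand): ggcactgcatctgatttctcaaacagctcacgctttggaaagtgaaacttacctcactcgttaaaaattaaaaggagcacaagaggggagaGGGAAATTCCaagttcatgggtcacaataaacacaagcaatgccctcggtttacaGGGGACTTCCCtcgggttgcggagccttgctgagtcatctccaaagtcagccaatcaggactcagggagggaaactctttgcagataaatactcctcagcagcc
Icam1 (chr9:21015690-21015939, plus strand): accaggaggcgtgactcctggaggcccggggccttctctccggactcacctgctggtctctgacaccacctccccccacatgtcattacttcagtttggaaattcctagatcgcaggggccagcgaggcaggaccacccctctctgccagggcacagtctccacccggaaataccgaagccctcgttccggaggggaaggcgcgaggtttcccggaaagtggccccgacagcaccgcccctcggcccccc

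The vector's target and the reporters were near their limit in endothelial cells. Hopx had 8 UMIs in members (2.89 CPM) and 55 in the others (16.0 CPM), with 62.5% and 54.5% of them in 3 cells of each group. EGFP had 0 UMIs in members and 3 in the others, and tdTomato 17 and 23 UMIs (6.13 and 6.68 CPM). A count of 0 in members allows up to 1.08 CPM, with the limit set at 3 UMIs as for shares. Whether members carried the vector could not be told at this depth, and no cell without it is at hand for comparison.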

How the data were processed

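Single-cell RNA of 1 library was analysed; the 2 chromatin samples of the series were not analysed here. Values are deposited UMI counts, raw and not normalized. The submitters' processing notes name Cell Ranger 8.0.1 and the mouse build GRCm39, while the sources used here give no annotation version. The protocol names a 10x 3' kit, so levels count molecules at gene ends.

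Barcodes and members were chosen by the UMI rules stated in the report. The members and the gene lists were chosen with earlier results of these data known. UMIs were summed over cells, scaled to CPM and compared as ratios, with the 15 gate genes left out; log2 ratios had 0.5 UMI added to each sum. Ratios, levels and shares carry exact 95% intervals for counting error. Genes named were a fixed set of vessel and reporter genes, the 15 highest and 15 lowest ratios among genes with at least 30 CPM in the higher group, and up to 4 genes per list with the largest log2 ratio; other list genes were named for their role, and Fmo2, Tmsb10b and Cxcl10 after their values were seen. 1 gene that the rule would name is not reported here; it stays in the counts and medians of its list. Doublets were called with Scrublet (scanpy 1.11.5, expected rate 0.05) and kept: 261 of all filtered cells (4.02%), 8 members (1.44%) and 25 other endothelial cells (2.59%). The comparison was tested on simulated group sums of independent Poisson counts, the model behind its intervals. That test does not cover RNA concentrated in few cells. In all, 15 alternatives were tried, 2 of them chosen after seeing the data. Python 3.11.15, scipy 1.17.1 and pandas 2.3.3 were used.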

Additional observations from a re-analysis of the deposited data

How the results depend on the processing

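The number of members was 356 after thinning each cell to 2000 UMIs (191 shallower endothelial cells left out) and 351 with no Vwf in the gate, against 557. Genes at least 1.5-fold higher numbered 594 after thinning, 791 against arterial-gate cells only and 531 with no CPM minimum, against 297. At 2-fold 90 were higher and 250 lower, and with no CPM minimum 1393 were lower, against 592. The vein and venule median was 2.14 against arterial-gate cells. The arterial median was -0.99 after thinning, and arterial genes lower numbered 11 against cells outside both gates and 10 at 2-fold, against 17. The causes of the other changes were not tested; at 2-fold or with no minimum the count itself is defined differently.

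Over the 13 alternatives that give them, the vein and venule median ranged from 1.07 to 2.14 and the NF-kB median from 0.41 to 0.68. Icam1 ranged from 1.36 to 3.00 (log2), Lcn2 from 3.27 to 4.92 and Slc38a5 from 1.48 to 5.03. Of 107 named genes with at least 20 UMIs, these reversed: after thinning Cxcl9 (-2.07), Cd63 (0.14), Procr (0.26) and Hey2 (1.45); with no Vwf in the gate Bgn (-0.067) and H2-Ab1 (0.16); against arterial-gate cells Tlr2 (0.20); and without cells holding much RNA of other types, chosen after seeing the data, H2-Ab1 (0.13) and, each with equal UMIs in both groups, Cd63, Notch3 and Hbb-bt (all 0.25). That setting left out 37 members (6.64%) and 80 others (8.30%). More of the 107 genes left the interval of their main ratio without reversing. These numbered 40 after thinning, 34 with no Vwf and 32 with no Il1r1 in the gate. Against arterial-gate cells they numbered 53, against cells outside both gates 35, and in each other setting at most 21. No paired analysis was possible because there is 1 library and no replicate. Depth limits Ackr1, Sele and the reporters most.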
